A study of Mus musculus with 16 samples.

Results

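The 10 genes described here encode the heat shock chaperones of the cytosol and of mitochondria: Hspa8, Hspa1a, Hspa1b, Hsph1, Dnaja1, Hsp90aa1, Hsp90ab1, Hspa9, Hspd1 and Hspe1. They were taken by symbol from the 46078 genes of the count table, and all 10 have a row in it. Chaperones bind unfolded segments of proteins and release them in cycles driven by ATP. Hsp70 proteins (Hspa8, Hspa1a, Hspa1b) receive clients from J-domain proteins such as Dnaja1 and are reset by exchange factors such as Hsph1, and Hsp90 proteins (Hsp90aa1, Hsp90ab1) act late, on kinases and receptors near their native state. In mitochondria, Hspa9 pulls imported proteins into the matrix, and Hspd1 with its lid Hspe1 encloses them for folding. Cells under heat or other proteotoxic stress raise the inducible members through Hsf1, a transcription factor that binds heat shock elements, and haematopoietic stem cells (HSCs) are known for a low rate of protein synthesis and for their sensitivity to misfolded protein.

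HSCs were sorted as LSK CD48-CD150+ cells from C57/Bl6 mice without treatment, and their RNA was amplified with Smart-seq2 from pools of 30 cells. The marrow of tibia, femur and humeri was split into a bone fraction (endosteal BM) and a marrow fraction (central BM), from WT mice and from Gfra2-/- mice, which lack the neurturin receptor GFRα2 and were used as a model of reduced cholinergic innervation. The 15 libraries used comprised 4 endosteal and 4 central WT libraries and 4 endosteal and 3 central libraries labelled Gfra2-/-, lettered A to D within a group in the order of the table. The study calls the pools of a group biological replicates, 4 in a figure legend, but its methods give 3 sequenced replicates per condition. The age of the mice and the number of mice behind each pool are not given in the sources used here.

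Some features of the libraries touch every value below. Between 826487 and 18550008 reads were counted on genes per library, and each central WT library (826487 to 3367289) was shallower than all others. Gfra2 had 0 to 4 counts in WT libraries and 0 to 1 in central libraries labelled Gfra2-/-. Endosteal libraries A to D with that label had 2, 47, 1 and 9. Libraries B and D of that group thus had more raw counts than any WT library, which their label would not lead to. The WT library with 4 counts was the shallowest of all, so these low counts do not settle the genotype of any library. Spike-in reads made up under 0.5% of 4 libraries (1 per group) and up to 7.10% of the other 11. Markers of the HSC gate were detected in every group (8 of 8 genes, summed level 1630 to 3537 CPM). The 4 B cell markers summed to 1322 CPM in endosteal library D labelled Gfra2-/- and to between 0 and 132 CPM in the other 14 libraries. The 4 erythroid markers summed to 431 CPM in that same library and to at most 41.0 CPM elsewhere. T cell markers summed to 50.6 CPM in it, to 73.8 CPM in central library B labelled Gfra2-/- and to at most 0.933 CPM elsewhere. The 6 markers of neutrophils and monocytes, of which 4 or 5 were detected in each group (Ly6g or Elane or both were at 0), summed to 2444 and 2224 CPM in central WT libraries C and D and to 1364 CPM in central library C labelled Gfra2-/-, against 323 to 762 CPM in the other 12. Levels are given in CPM, that is counts over the library total after TMM normalization, on 1 scale for all libraries.

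Heat shock elements are arrays of the unit GAA in alternating orientation, and they are shown here because they are the DNA sequence through which the inducible members answer to stress. RefSeq promoters of 300 bases, from 250 before to 50 after the start site on GRCm38.p6, were at hand for 6 members, namely Hspd1, Hspe1, Dnaja1, Hsph1, Hspa1a and Hspa1b. These members have 10 promoter entries, since some have more than 1 start site. A motif of 2 units (GAANNTTC or TTCNNGAA, which together cover both strands) was in 7 of the 10, at least 1 for each of the 6 genes, and in 15.1% of all 32851 promoters. A motif of 3 units (GAANNTTCNNGAA or TTCNNGAANNTTC, which contain those of 2 units) was in 4 of the 10, those of Hspd1, Hspe1 and Hsph1, and in 0.603% of all promoters. Each window below has 30 bases, read 5′ to 3′ on the strand of the gene, with the motif in capitals.
Hspe1 (chr1:55088053-55088082, plus strand): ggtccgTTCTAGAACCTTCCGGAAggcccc
Hspd1 (chr1:55088053-55088082, minus strand): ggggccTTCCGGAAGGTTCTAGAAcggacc
Hsph1 (chr5:149636280-149636309, minus strand): tgctgcagaTTCTGGAAAGTTCtcctcagt
Dnaja1 (chr4:40722333-40722362, plus strand): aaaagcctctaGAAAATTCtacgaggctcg
Hspa1a (chr17:34972242-34972271, minus strand): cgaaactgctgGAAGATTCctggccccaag
Hspa1b (chr17:34959324-34959353, minus strand): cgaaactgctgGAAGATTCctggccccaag

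The windows of Hspe1 and Hspd1 are the same bases read on opposite strands, with 1 array of 4 units across 18 bases. Both genes start head to head on chromosome 1, Hspd1 at chr1:55077835-55088243 on the minus strand and Hspe1 at chr1:55088132-55091307 on the plus strand, and their GENCODE exons overlap by 112 bases. The array lay 89 bases before the RefSeq start of Hspe1 and 144 bases before that of Hspd1, in an exon that GENCODE gives to Hspd1. The windows of Hspa1a and Hspa1b are letter for letter the same, 104 bases before each start. The array of 3 units in Hsph1 lay 15 bases after a start site, within its exon, and the motif of Dnaja1 lay 124 bases before a start. A match is a description of the letters and not a site of binding.

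Chaperone genes have processed pseudogenes and near-identical copies, which bears on how their reads were counted. The alignment settings used for these files drop a read that fits several places equally well, and reads were 50 bases long. The share of 50-base stretches of a member's transcripts found also in another gene was 66.3% for Hspa1a and 62.3% for Hspa1b, which share 1716 such stretches with each other. It was 47.5% for Hsp90aa1, 42.1% for Hspd1, 39.4% for Hspa8, 22.8% for Hspe1 and 20.6% for Dnaja1, whose exons also overlap those of Smu1 on the opposite strand by 608 bases. Hsp90ab1 (3.44%), Hspa9 (2.81%) and Hsph1 (0%) shared little, so by this share their counts are the least open to reads lost or split in this way.

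**Figure D1:**
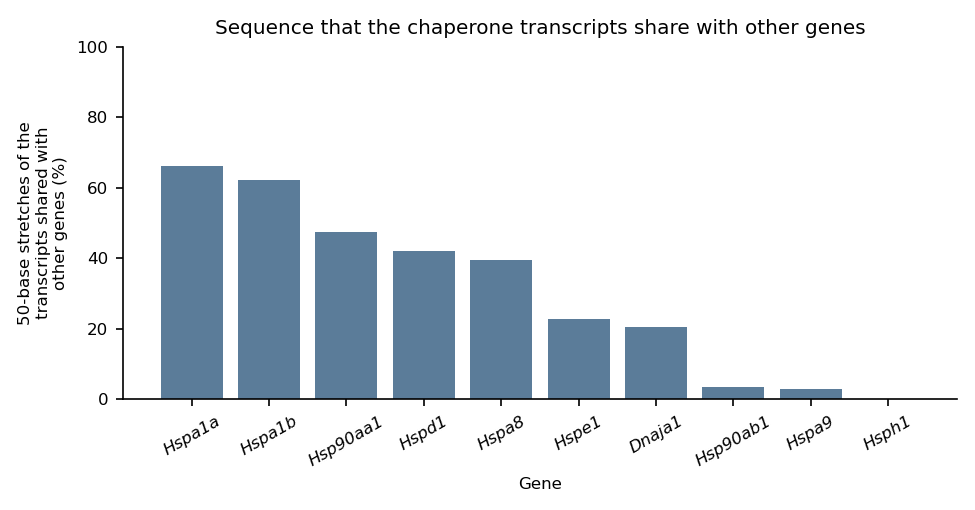
Share of the 50-base stretches of each member's annotated transcripts that occur in at least 1 other gene (vertical axis, percent, from 0 to 100), with a bar for each of the 10 genes. The bars run from 66.3% for Hspa1a down to 0% for Hsph1, and Hsp90ab1 and Hspa9 stay under 5%.

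Genes with 100 or more such stretches in common, pseudogenes among them, took up reads of their own. The 3 genes that share most with Hsp90aa1 summed to 77.0 to 136 CPM in endosteal WT libraries and reached 78.4% of the Hsp90aa1 counts in 1 central WT library, so the split between Hsp90aa1 and these copies is uncertain. Hspd1-ps3, named after its values were seen, had 15.6 to 73.2 CPM in endosteal and 1.34 to 13.8 CPM in central WT libraries, and 29.7 to 81.0 and 35.3 to 57.1 CPM in endosteal and central libraries labelled Gfra2-/-. For Hspa8, the 8 genes that share most had 1.27 to 4.39 CPM in all, at most 5.33% of its counts. Reads that fit a gene and its copy equally well were dropped, so these counts do not show how many reads Hspa8 lost. The 4 genes that share most with Dnaja1 reached 45.2% of its counts in 1 endosteal WT library and 36.4% in 1 endosteal library labelled Gfra2-/-, but at most 9.09% and 13.7% in the central libraries of WT mice and of that label.

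Hspa1a (ENSMUSG00000091971, chr17:34969190-34972156) and Hspa1b (ENSMUSG00000090877, chr17:34956436-34959238) are the stress-inducible Hsp70 genes, a pair of copies on chromosome 17. Hspa1a had 0 counts in all 15 libraries, which allows up to 0.347 CPM in the endosteal libraries labelled Gfra2-/- and up to 4.02 CPM in the shallowest central WT library (3 counts; counting error only). Hspa1b had 14 counts in endosteal WT library A (3.41 CPM), 1 in central WT library D, 3 in endosteal library B labelled Gfra2-/- and 0 in the other 12. Since most stretches of both transcripts fit both genes, reads from either could be dropped. Exons of Hspa1a also overlap those of Gm20481 on the opposite strand by 564 bases, and counting took no account of strand. The part that shared stretches and this overlap play in the low counts was not tested. Both genes were removed by the filter on low counts, so 8 of the 10 members were tested.

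The other 8 members were counted in all 15 libraries. Their levels were divided by the length of all annotated exons of a gene, merged over its transcripts (from 1474 bases for Hspe1 to 8629 for Dnaja1). That length can exceed that of the mRNA expressed. It was not corrected for stretches shared with other genes, so the order below is approximate. Per kilobase of exon, Hsp90ab1 was highest, at 900 ± 149 CPM per kb (SD, n = 15). Hspa9 followed at 74.0 ± 14.7, Hsp90aa1 at 53.5 ± 11.4, Hspe1 at 41.9 ± 13.8, Hspa8 at 35.8 ± 14.4, Hspd1 at 28.6 ± 9.65, Dnaja1 at 11.6 ± 2.54 and Hsph1 at 8.5 ± 6.0 CPM per kb. In this order, Hsp90ab1 lay above Hspa9 in 15 of 15 libraries without overlap of their ranges. The ranges of all other neighbours overlapped, and Hspe1 exceeded Hspa8 in only 8 of 15 libraries. The 10 genes held 0.317% to 0.467% of the reads on genes, and Hsp90ab1 alone 66.4% to 78.0% of those.

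**Figure D2:**
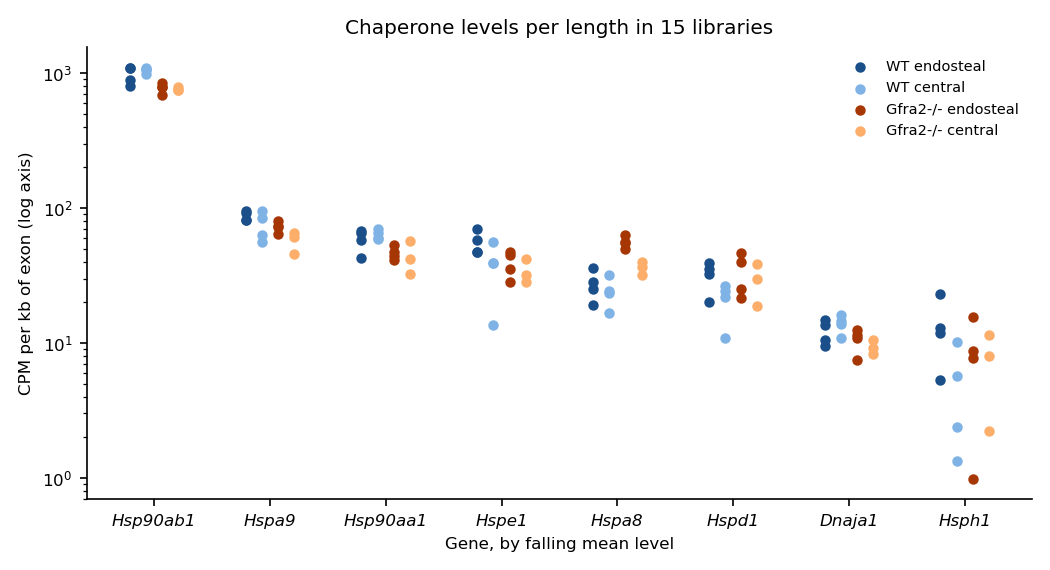
Level of the 8 members with counts in every library, as CPM per kilobase of exon on a log axis, with 1 point for each of the 15 libraries coloured by group and genes in falling order of their mean. Hsp90ab1 stands clear of the rest at 900 CPM per kb on average, and Hsph1 at the right has the widest spread.

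The members also differed in how far libraries lay apart. Over all 15 libraries, the highest for Hsph1 (166 CPM) was 23.2 times the lowest (7.18 CPM), against 1.59 times for Hsp90ab1. The SD of log2(CPM + 1) within groups was 1.28 for Hsph1, larger than that of 78.8% of 4675 genes whose mean level lay within 1 log2 unit of it. For the others it was small for their level. It was 0.30 for Hspa8 (larger than 2.17% of 2488 such genes), 0.27 for Dnaja1 (0.736% of 3396), 0.26 for Hsp90aa1 (1.5% of 1598), 0.24 for Hspa9 (2.28% of 832) and 0.14 for Hsp90ab1 (0% of 28). Hspd1 and Hspe1 had 0.51 and 0.52, larger than 10.1% and 8.62% of their peers.

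Hspa8 (ENSMUSG00000015656, chr9:40800984-40810087) encodes Hsc70, the constitutive cytosolic Hsp70, which folds new proteins and uncoats clathrin vesicles. Among WT libraries A to D, it had 82.4, 155, 107 and 122 CPM in endosteal HSCs and 71.5, 105, 138 and 100.1 CPM in central HSCs. In libraries labelled Gfra2-/- it had 242, 239, 212 and 272 CPM in endosteal HSCs and 137, 157 and 170 CPM in central HSCs. The 4 endosteal libraries labelled Gfra2-/- were the highest of all 15. Central libraries labelled Gfra2-/- came next and overlapped both WT groups, the highest of which reached 155 CPM in endosteal and 138 CPM in central HSCs. Exons of Hspa8 contain the snoRNAs Snord14c, Snord14d and Snord14e on the same strand, so reads over them cannot be assigned to 1 gene.

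Dnaja1 (ENSMUSG00000028410, chr4:40722150-40737149), an Hsp40 that delivers clients to Hsp70, had 127, 82.2, 90.6 and 118 CPM in endosteal and 119, 93.9, 125 and 139 CPM in central WT libraries. Its levels in libraries labelled Gfra2-/- were 108, 93.1, 98.2 and 64.0 CPM in endosteal and 91.4, 79.0 and 71.1 CPM in central HSCs. The 3 central libraries of that label lay just under the 4 central WT ones, and the endosteal groups overlapped.

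Hsph1 (ENSMUSG00000029657, chr5:149614287-149636376) encodes Hsp105, an exchange factor for Hsp70 that is strongly heat-inducible in many cells. Its CPM were 38.5, 86.2, 94.0 and 166 in endosteal WT libraries and 41.6, 9.64, 17.4 and 74.1 in central WT libraries. The libraries labelled Gfra2-/- had 114, 56.6, 63.3 and 7.18 CPM in endosteal and 58.6, 16.1 and 83.0 CPM in central HSCs. Every group overlapped every other. The lowest value of all was that of endosteal library D labelled Gfra2-/-, the library with the high B cell and erythroid markers, and whether these markers bear on it was not tested.

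**Figure D3:**
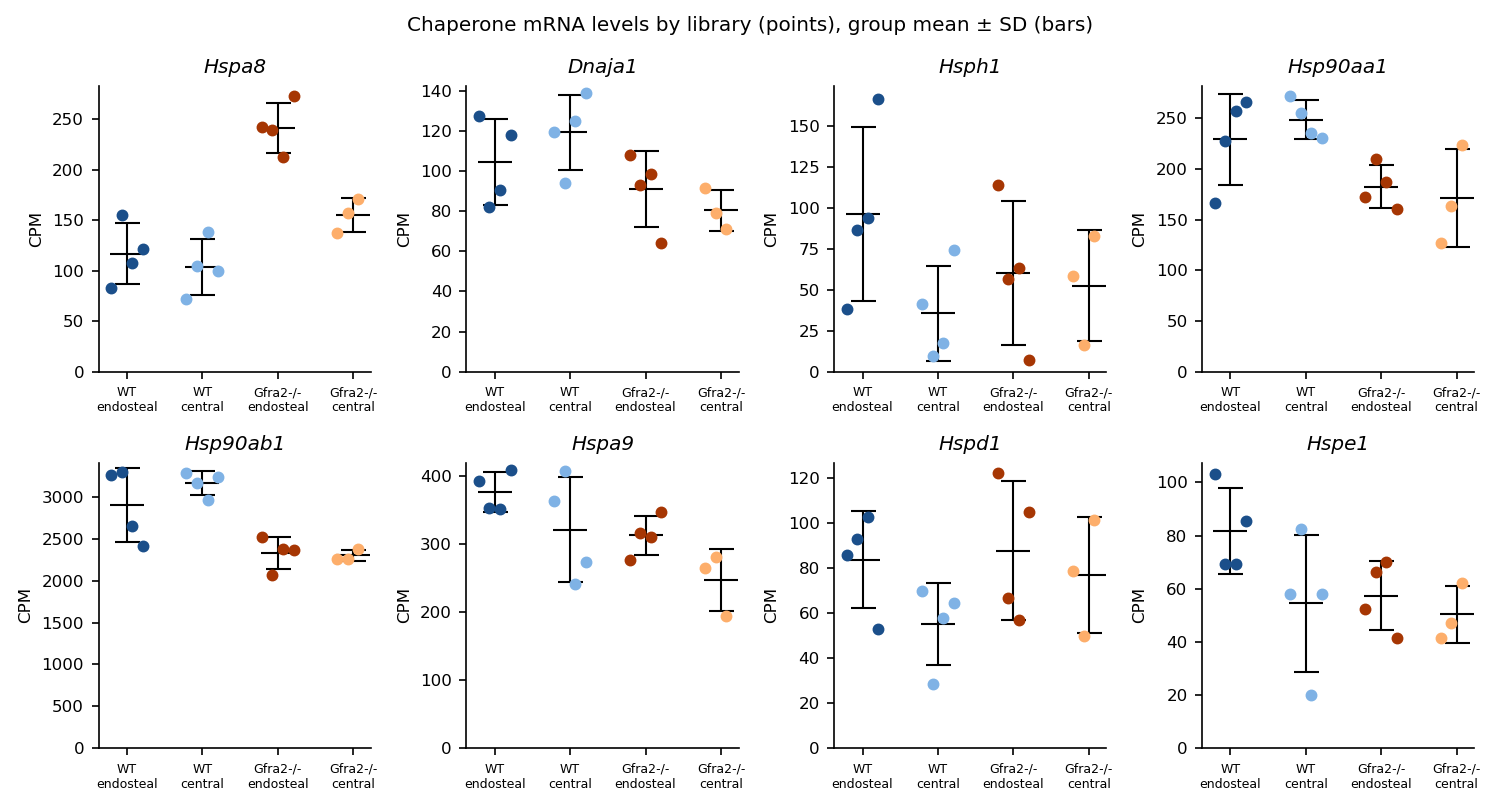
Level in CPM (vertical axis, from 0) of the 8 members counted in every library, with 1 point per library in the order A to D and bars for the group mean ± SD. The 4 endosteal libraries labelled Gfra2-/- lie above all others for Hspa8, while for Hsph1 the libraries of 1 group lie far apart, from 38.5 to 166 CPM in endosteal WT HSCs.

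Hsp90ab1 (ENSMUSG00000023944, chr17:45567775-45573271), the constitutive cytosolic Hsp90, had 3260, 3292, 2647 and 2413 CPM in endosteal and 3278, 3161, 2960 and 3239 CPM in central WT libraries. In libraries labelled Gfra2-/- it had 2521, 2070, 2371 and 2366 CPM in endosteal HSCs, and 2261, 2261 and 2377 CPM in central HSCs. All 3 central libraries of that label lay under all 4 central WT ones, whereas the endosteal groups overlapped.

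Hsp90aa1 (ENSMUSG00000021270, chr12:110690605-110702728), its inducible paralogue, had 167, 228, 257 and 266 CPM in endosteal and 272, 256, 236 and 231 CPM in central WT libraries. With the Gfra2-/- label, endosteal libraries had 172, 210, 187 and 161 CPM and central libraries 128, 164 and 223 CPM. As for Hsp90ab1, the central groups did not overlap and the endosteal ones did.

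Hspa9 (ENSMUSG00000024359, chromosome 18), the mitochondrial Hsp70 mortalin, had 394, 354, 351 and 410 CPM in endosteal and 363, 408, 241 and 274 CPM in central WT libraries. It had 276, 316, 311 and 348 CPM in endosteal and 265, 281 and 195 CPM in central libraries labelled Gfra2-/-. In endosteal HSCs, every WT library exceeded every library labelled Gfra2-/-, by a margin of a few CPM at the closest.

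Hspd1 (ENSMUSG00000025980), the mitochondrial chaperonin Hsp60, had 85.8, 92.9, 102 and 52.9 CPM in endosteal and 69.7, 28.6, 57.7 and 64.4 CPM in central WT libraries, and 122, 66.8, 56.9 and 105 CPM in endosteal and 78.8, 50.01 and 101 CPM in central libraries labelled Gfra2-/-. Its lid Hspe1 (ENSMUSG00000073676), or Hsp10, had 103, 69.4, 69.3 and 85.3 CPM in endosteal and 57.9, 82.4, 20.1 and 58.0 CPM in central WT libraries, and 52.3, 66.1, 70.01 and 41.4 CPM in endosteal and 41.6, 47.3 and 62.2 CPM in central libraries labelled Gfra2-/-. The groups set against each other in the 4 comparisons overlapped for both genes, and the lowest Hspe1 level was that of central WT library C, which rests on 15 counts.

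The comparison of endosteal with central HSCs of WT mice asks how the site in the BM bears on HSCs. No member passed a 10% FDR in edgeR's quasi-likelihood test, and 0 of 8 had an unadjusted p under 0.05. Over all 11181 genes tested, 0% passed the FDR, 7.89% had such a p, 4.49% of 13486 genes passed the same FDR with DESeq2 (0 of 8 members) and 6.36% had groups that did not overlap (0 of 8 members). Hsph1 had the smallest p, with a mean of 96.3 CPM (SD 52.8, n = 4) for endosteal and of 35.7 CPM (SD 29.02, n = 4) for central HSCs, and its log2 fold change was 1.39 with a standard error of 0.72 (FDR = 0.642 from edgeR). Leaving out endosteal library D moved it to 1.001 and leaving out central library D to 2.02. The other 7 members spanned log2 fold changes from -0.21 to 0.58. Of all 8, 5 were higher in endosteal HSCs, and the median was 0.18, against 0.03 for all genes. Without central libraries C and D, which had high neutrophil and monocyte markers, the log2 fold change of Hsph1 was 1.90, and the median of the members lay under that of all genes, at a difference of -0.11 in place of 0.15. Central WT libraries were shallower than endosteal ones throughout, so depth and site cannot be told apart in this comparison. In pools of sorted cells, fewer cells that express a gene and less of its RNA per cell cannot be told apart either.

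In libraries labelled Gfra2-/-, all 8 tested members were higher in endosteal than in central HSCs, by log2 fold changes of 0.02 to 0.64 with a median of 0.19, beside 0.03 for all 13860 genes. Under spike-in scaling, which moved the median of all genes to -0.46, 6 of the 8 were lower. The count rested on single libraries too, since 3 of 8 were lower without endosteal library A, 2 without central library B and 1 without central library A. Hspa8, at 241 ± 24.6 CPM (SD, n = 4) against 155 ± 16.7 (SD, n = 3), was 1.56 times higher in endosteal HSCs, a log2 fold change of 0.64 (standard error 0.24, p = 0.0247, FDR = 0.999 from edgeR; exact two-sided permutation p = 0.0571, the smallest that 4 against 3 libraries can give here). It was the 1 member with an unadjusted p under 0.05, where 4.79% of all genes had one, and the 1 member whose groups did not overlap, where 7.34% of all genes did not. With DESeq2 it passed (FDR = 0.0745), as did 2.75% of 14348 genes, while edgeR passed 0% of genes. The difference was 0.66 among libraries with at least 0.5% spike-in reads. It was 0.55 without endosteal libraries B and D, which had the highest Gfra2 counts, and 0.57 without library D alone. Neither value kept an unadjusted p under 0.05 with edgeR.

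The genotypes were compared first in endosteal HSCs. Hspa8 had 241 ± 24.6 CPM (SD, n = 4) in endosteal libraries labelled Gfra2-/- and 117 ± 30.2 (SD, n = 4) in endosteal WT libraries. This was 2.07 times higher, a log2 fold change of 1.05 (standard error 0.27, p = 0.0027, FDR = 0.601 from edgeR; exact two-sided permutation p = 0.0286, the smallest that 4 against 4 can give). Thus Hspa8 did not pass the 10% FDR with edgeR, where 0% of 12970 genes did, and 1 of 8 members had an unadjusted p under 0.05, where 6.69% of genes had one. DESeq2 did call Hspa8 (log2 fold change 1.06, FDR = 0.00327), 1 of 8 members against 3.71% of 14395 genes. The groups did not overlap for 2 of 8 members, Hspa8 and Hspa9, and for 6.24% of all genes. The Hspa8 difference was 1.05 among libraries with at least 0.5% spike-in reads (3 against 3) and 1.16 between the 2 libraries under it, both on the log2(CPM + 1) scale. It was 0.97 without library D labelled Gfra2-/-, 0.95 without libraries B and D, 0.90 to 1.21 with any 1 library left out, and 0.78 (standard error 1.22) with spike-in scaling. Of the other 7 members, 6 were lower with the Gfra2-/- label, and the log2 fold changes of the 7 ran from -0.68 to 0.07. The median of the 8 was -0.29, against 0.03 for all genes.

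In central HSCs, 5 of 8 members were lower and 3 higher in libraries labelled Gfra2-/- than in WT libraries. Hsp90ab1, at 2299 ± 66.8 CPM (SD, n = 3) against 3160 ± 141 (SD, n = 4), differed by a log2 fold change of -0.48 (standard error 0.16, p = 0.0122, FDR = 0.401 from edgeR; exact two-sided permutation p = 0.0571, the smallest possible here). Among libraries with at least 0.5% spike-in reads (2 against 3) the log2(CPM + 1) difference was -0.47, and leaving out any 1 library gave -0.53 to -0.47. With spike-in scaling, which raised the median of all genes to 1.75, it was 1.16 and so turned direction, staying below that median. Without the 3 central libraries high in neutrophil and monocyte markers (2 against 2) it was -0.56, with an FDR of 0.478 from edgeR and no unadjusted p under 0.05. In the fit of all central libraries it was the 1 of 8 members with such a p, where 8.73% of 11772 genes had one. No member passed the FDR with edgeR, where 0.051% of genes did, or with DESeq2, where 5.14% of 14116 genes did. The groups did not overlap for 3 of 8 members, Hsp90aa1, Hsp90ab1 and Dnaja1, all lower with the Gfra2-/- label, against 12.4% of genes. The other members spanned log2 fold changes from -0.59 to 0.56, and the median of the 8 was -0.28, beside 0.03 for all genes. Here too the WT libraries were the shallower ones, and 2 of them, A and C, had under 1500000 reads counted on genes. The study set its quality limit at that number of uniquely mappable reads, a quantity nearer to all aligned reads, spike-ins included, of which library A had 2278984 and library C 1494725. Without these 2 the median of the members minus that of all genes was -0.62.

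**Figure D4:**
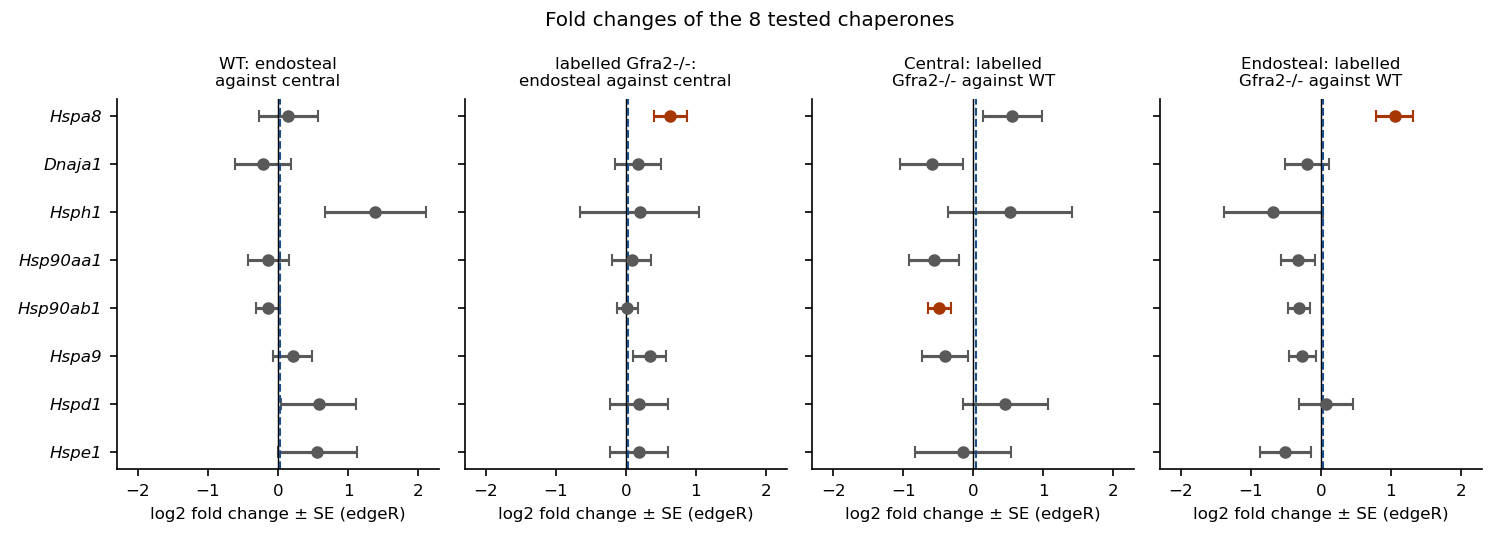
Log2 fold change of the 8 tested members (points, with edgeR standard errors) in each of the 4 comparisons, 1 panel each, with red for an unadjusted p under 0.05 and a dashed line for the median of all genes tested. Hspa8 is the member farthest to the right among endosteal libraries of both genotypes, at 1.05, and Hsp90ab1 is red at -0.48 in central HSCs.

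A fit over the 15 libraries with an interaction term compared the endosteal to central difference between the genotypes. Of 8 members, 0 passed the FDR with edgeR or with DESeq2 and 0 had an unadjusted p under 0.05, where 0%, 1.62% and 6.97% of genes did. Hsph1 again had the smallest p, at a log2 difference of -1.22 (standard error 1.13, FDR = 0.867 from edgeR). For Hspa8, whose single comparisons are given above, it was 0.47 (standard error 0.44, FDR = 0.873 from edgeR), so its higher level with the Gfra2-/- label was not shown to differ between endosteal and central HSCs.

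Known partners were set against each other across the 15 libraries, on the log2(CPM + 1) scale, in 3 pairs (Hspa1a and Hspa1b could not be compared). Hspd1 and Hspe1, whose promoters hold the same element printed above, had a Pearson r of -0.081 (permutation p = 0.765) and a Spearman rho of -0.229 (permutation p = 0.412), and r was 0.169 without the 2 libraries farthest from the median of Hspd1. Hspa8 and its partner Dnaja1 had negative values, which did not pass 0.05 after adjustment over the 3 pairs (r = -0.587, permutation p = 0.0227, adjusted 0.0680; rho = -0.586, permutation p = 0.0251, adjusted 0.0504). Without the 2 libraries farthest from the median of Hspa8, r was -0.407, and for deviations from the group means it was -0.454. Hsp90aa1 and Hsp90ab1 had r = 0.454 (permutation p = 0.0891, adjusted 0.134) and rho = 0.557 (permutation p = 0.0336, adjusted 0.0504), with r = 0.315 after leaving out the 2 libraries in the same way. For deviations from the group means this turned to -0.425.

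The wider chaperone network was described with 109 genes in 9 lists. With edgeR, 0 of them passed the 10% FDR in each of the 5 fits. With DESeq2, 2 of 97 (Cct5, Htra2), 0 of 96 and 3 of 97 (Hspa2, Htra2, Yme1l1) passed in the first 3 fits listed below. In the other fits it passed 3 of 95 (Bag6, Hspb6, Pih1d1) and 1 of 98 (Htra2). The shares of all genes that DESeq2 passed were 4.49%, 2.75%, 5.14%, 3.71% and 1.62%, in the same order. At an unadjusted p under 0.05 there were 10 of 93 tested (10.8%) between endosteal and central WT HSCs, 3 of 97 (3.09%) in the same comparison with the Gfra2-/- label, 9 of 97 (9.28%) between the genotypes in central HSCs, 8 of 94 (8.51%) in endosteal HSCs and 2 of 100 (2.00%) for the interaction, to be read beside the shares of all genes given above. Values named below have such a p and an FDR over 0.1 from edgeR.

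Among Hsp90 co-chaperones, 17 of 19 were higher in endosteal than in central WT HSCs (median log2 fold change 0.38) and 15 of 19 in libraries labelled Gfra2-/- (median 0.28), beside 0.03 for all genes in each. Ahsa1, which stimulates the ATPase of Hsp90, had 175, 128, 242 and 167 CPM in endosteal and 38.0, 104, 81.8 and 77.2 CPM in central libraries of WT mice, without overlap (log2 fold change 1.22, FDR = 0.518 from edgeR). Stip1 (Hop), the bridge between Hsp70 and Hsp90, had a log2 fold change of 0.77 between endosteal and central libraries labelled Gfra2-/-, with a p just under the limit. Between the genotypes in endosteal HSCs, Pih1d1 was lower (-0.93) and Chordc1 higher (0.78) with the Gfra2-/- label. Fkbp5, an immunophilin of steroid receptor complexes, was also lower (-1.57), with overlap of the groups. It had 16.8, 118, 112 and 93.4 CPM in endosteal WT libraries and 18.0, 44.8, 34.1 and 17.6 CPM in those labelled Gfra2-/-. In central HSCs, Ttc4 was higher (1.72) and Ptges3, the co-chaperone p23, lower (-1.01) with that label.

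TRiC, the cytosolic chaperonin that folds actin and tubulin, and prefoldin had 10 of 14 genes higher in endosteal WT HSCs (median 0.29). Cct5 had 600, 839, 478 and 543 CPM in endosteal and 272, 321, 316 and 270 CPM in central WT libraries, without overlap, with 1.04 on the log2 scale (standard error 0.27, FDR = 0.369 from edgeR). Cct4 (0.71) and Cct2 (0.69) were also higher there. Cct6a was higher in endosteal than in central libraries labelled Gfra2-/- (1.03) and lower in the central ones than in central WT (-0.98). Of its exon length, 12.5% overlaps Psph on the opposite strand. Cct2 was instead higher in central libraries of that label than in central WT (0.92), with overlap of the groups. It had 215, 395 and 532 CPM there, against 179, 238, 194 and 181 CPM in central WT libraries.

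Of the J-domain proteins other than Dnaja1, 7 of 16 were higher in endosteal WT HSCs. Dnajb1, the inducible Hsp40, had 141, 91.9, 106 and 103 CPM in endosteal and 128, 164, 492 and 211 CPM in central WT libraries (log2 fold change -1.19, FDR = 0.574 from edgeR), with overlap of the groups. The central library far above the rest, C, is the one with the highest neutrophil and monocyte markers, and whether these bear on it was not tested. Dnajc5 was lower as well (-1.05). Between the genotypes in central HSCs, Dnajc7 (1.10) and Dnaja2 (0.87) were higher with the Gfra2-/- label. Nucleotide exchange factors were led by Sil1, of the endoplasmic reticulum, and by Bag6. Sil1 was higher in endosteal than in central WT HSCs (2.32) and lower in endosteal libraries labelled Gfra2-/- than in endosteal WT (-1.56). Its interaction was -2.42. The groups overlapped in both comparisons, with 229, 106, 88.0 and 23.0 CPM of Sil1 in endosteal WT libraries. Hyou1 was also higher in endosteal WT HSCs (2.04), with overlap. Bag6 was lower with the Gfra2-/- label in endosteal HSCs (-1.58).

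In mitochondria, 7 of 13 chaperones and proteases were higher in endosteal WT HSCs. Trap1, the mitochondrial Hsp90, had 130, 156, 113 and 158 CPM in endosteal and 6.34, 74.9, 52.3 and 21.9 CPM in central WT libraries, which did not overlap (log2 fold change 1.82, FDR = 0.526 from edgeR). The protease Htra2 had 42.4, 67.4, 35.3 and 50.6 CPM in endosteal and 2.72, 0.933, 0 and 1.01 CPM in central WT libraries (log2 fold change 5.33, FDR = 0.225 from edgeR). These central values rest on 3, 3, 0 and 3 counts, so the size of the fold change is poorly determined. Central libraries labelled Gfra2-/- had 19.7, 53.9 and 8.99 CPM of Htra2, above all central WT libraries, and its interaction was -5.10 (FDR = 0.523 from edgeR). Exons of Htra2 overlap those of Aup1 over 25.6% of their length and those of Loxl3 over 18.2%, both on the opposite strand, and counting took no account of strand, so these reads cannot be given to 1 gene. Yme1l1, an inner membrane protease, was higher with the Gfra2-/- label in both central (1.41) and endosteal HSCs (1.43).

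Heat shock transcription factors and their regulators had 1 gene at this p in all, Hsf1, with 58.0, 73.9, 102 and 69.5 CPM in endosteal and 53.8, 35.2 and 24.4 CPM in central libraries labelled Gfra2-/- (log2 fold change 1.01, FDR = 0.999 from edgeR). Other Hsp70 family members included Hspa5 (BiP), higher in endosteal libraries labelled Gfra2-/- than in endosteal WT (562 ± 116 against 355 ± 75 CPM, SD, n = 4 each, log2 fold change 0.67, FDR = 0.737 from edgeR). Hspa2 was lower in central libraries of that label than in central WT (-4.07, standard error 1.62), with overlap of the groups. It had 0, 21.1, 29.5 and 41.5 CPM in central WT libraries and 0.59, 0.851 and 2.70 CPM in those labelled Gfra2-/-. The latter rest on 9, 9 and 21 counts, so the size of this fold change is poorly determined. Of 6 small heat shock proteins, 1 to 3 were tested and 0 had such a p in any comparison. Immediate-early genes, which rise in handled or dissociated cells, summed to 212 to 422 CPM over all libraries, with ranges that overlapped between all groups, and 1 of 11, Dusp1, had such a p, in endosteal HSCs (1.90 between the genotypes).

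**Figure D5:**
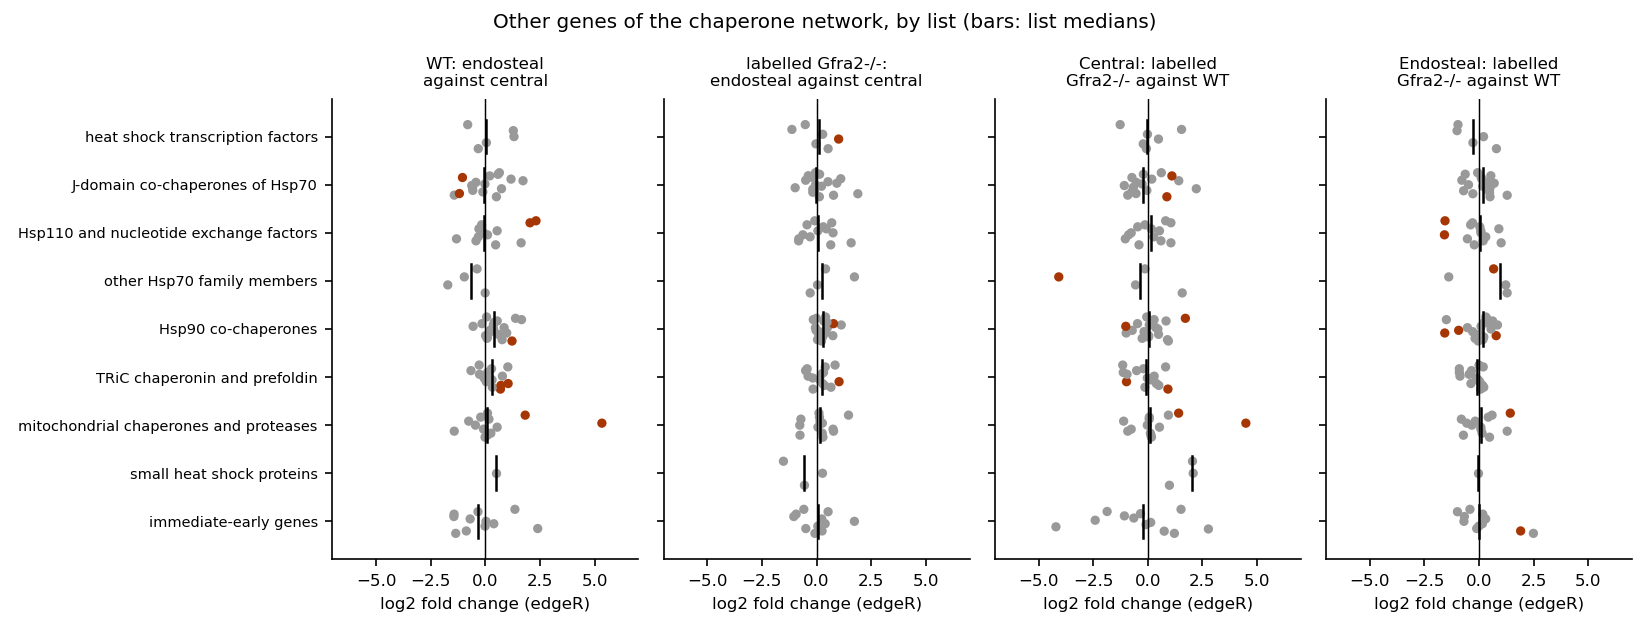
Log2 fold changes of the other chaperone network genes (points, 1 per tested gene) in 9 lists and 4 comparisons, with red for an unadjusted p under 0.05 from edgeR and a vertical bar for the median of each list. Most points lie near 0, the medians of Hsp90 co-chaperones (0.38) and TRiC with prefoldin (0.29) lie to the right of 0 in the WT panel, and Htra2 at 5.33, from 0 to 3 counts per central library, is the point farthest to the right.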

How the data were processed

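RNA-Seq reads (single end, 50 bases) had been aligned by the authors to GRCm38 with GSNAP and counted per gene with htseq-count (HTSeq 0.5.3p3) without regard to strand. The deposited table holds raw counts for 46078 genes and, left out of library sizes here, for 92 spike-ins and 5 summary categories. Groups came from the labels, which describe 16 samples, and 1 column was not mapped to a sample and not used. Members and gene lists were chosen with earlier results of these data known. Each comparison was fitted on the libraries of its groups, over all genes, with edgeR 4.0.16 in R 4.3.3 (filterByExpr, TMM, quasi-likelihood test, Benjamini-Hochberg adjustment, FDR 0.1), after tests on simulated data. The authors had used DESeq2 for size factors and named a 10% FDR, and DESeq2 1.42.0 was run here as an alternative test. Named were all members, with a fold change for those at an unadjusted p under 0.05 or else the smallest p, and up to 3 genes per list at such a p. Exons and shared 50-base stretches came from GENCODE M21 (GRCm38) and promoters from RefSeq (GRCm38.p6). Single members were compared by exact two-sided permutation of log2(CPM + 1). PCR copies were not marked by molecular identifiers, so depth and limits cover counting error only. Alternatives included other size factors, filters, thinned counts and each library left out and, chosen after seeing the data, a term for the spike-in share (under 0.5% or not) and leaving out the 3 central libraries over 1000 CPM of neutrophil and monocyte markers.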

Additional observations from a re-analysis of the deposited data

Results flagged for a closer look

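Hspa1b was the gene for which 1 library stood apart from the other 3 of its group, and it did so in 3 groups. Its highest levels were 3.41 CPM in endosteal WT library A (14 counts), 0.337 CPM in central WT library D (1 count) and 0.151 CPM in endosteal library B labelled Gfra2-/- (3 counts), with 0 counts in the other libraries of each group. Of 27 sets looked at, each the values of 1 gene in 1 group, chance would set about 1 in 20 apart, but that rate does not apply here. The central group labelled Gfra2-/-, with 3 libraries, was not looked at in this way. Where the other 3 libraries are at 0, any single count sets a library apart.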

How the results depend on the processing

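No paired analysis was possible because no column of counts names its replicate. A term for the spike-in share, added after the data were seen, left 0 members past the FDR in each of the 5 fits and kept Hspa8 at 1.05 and 0.66 and Hsp90ab1 at -0.49, and with it 1 gene passed in WT HSCs. With DESeq2, 1 member passed the 10% FDR with the Gfra2-/- label between endosteal and central HSCs and 1 between the genotypes in endosteal HSCs (Hspa8 both times), and 0 did under every other alternative. The log2 fold change of Hsp90ab1 in central HSCs reversed to 1.16 with spike-in size factors, and kept its direction otherwise. Genes past the FDR were 606 with DESeq2, 58 without a filter, 11 with at least 10 counts in every library, 4 with thinned counts and 22 with all groups in one fit for WT HSCs (0 as reported, 0 to 6 with 1 library left out). With the Gfra2-/- label they were 395 with DESeq2 and 15 with spike-in scaling (0 as reported). In central HSCs they were 725, 2 (spike-in), 134 (no filter), 29 (10 counts), 14 (thinned), 0 (FDR of 0.05), 0 (quality limits), 1 (high spike-in share), 0 (without the libraries high in neutrophil and monocyte markers) and 0 to 8 with 1 library left out, against 6. In endosteal HSCs they were 534, 6 (spike-in) and 1 (all groups), and for the interaction 240 and 193 (spike-in). The median of the members minus that of all genes (0.15 in WT HSCs) moved to 0.38 there with DESeq2, to -0.054 without a filter, to 0.0047 with the quality limits, to 0.041 with a high spike-in share, to -0.11 without the libraries high in neutrophil and monocyte markers, and to 0.037 to 0.24 with 1 library left out. With the Gfra2-/- label it moved to 0.019 (spike-in), 0.34 (high spike-in share) and 0.31 (without endosteal libraries B and D). There it was also 0.31 without the library high in those markers and 0.056 to 0.31 with 1 library left out. In central HSCs it was -0.12 (DESeq2), -0.51 (no filter), -0.10 (10 counts), -0.62 (quality limits), -0.56 (without those high in the markers) and -0.52 to -0.16 with 1 left out. In endosteal HSCs it was -0.12 without libraries B and D labelled Gfra2-/-. For the interaction it was -0.14 (DESeq2), 0.065 (10 counts), 0.42 (quality limits), 0.43 (without those high in the markers) and 0.12 to 0.37 with 1 left out. The correlation of Hspd1 and Hspe1 was 0.031 with a high spike-in share and -0.36 for deviations from group means, and that of Hsp90aa1 and Hsp90ab1 was -0.42 for these. The cause of these shifts was not tested.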
